A study of Mus musculus with 15 samples.

Results

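The chemokine loci described here are 4 windows of the mouse genome, fixed by gene name, that together cover 325 kb of build mm9 and 8 genes. Ccl2 and Ccl7 share chr11:81830000-81880000; Ccl5, Ccl3 and Ccl4 share chr11:83320000-83500000; Cxcl1 and Cxcl2 share chr5:91300000-91350000; and Cxcl10 has chr5:92755000-92800000. Every peak of the 5 deposited PU.1 lists that touched a window was taken. In the 4 lists from cells, these peaks joined into 33 regions out of 53107 in the whole genome, and the list from reconstituted chromatin gave 11 of its 57512 peaks. The cells were primary bone marrow-derived macrophages from C57BL/6 mice, on day 7 of differentiation. They carried a doxycycline-inducible retroviral vector, in a puromycin-selected population, with a short hairpin against PU.1 (shPU.1, n = 2 libraries) or against Renilla luciferase (the control, called empty in the labels, n = 2 libraries). Per the labels' protocols puromycin (3 µg/ml) was given from day 3, and doxycycline (0.5 µg/ml) for 48 hours from day 5. No inflammatory stimulus is named in the labels. The list from reconstituted chromatin, called in vitro here, comes from 1 pair of libraries: naked macrophage DNA from the same strain was assembled with recombinant histones, partly digested with micrococcal nuclease and incubated with macrophage nuclear extract from which PU.1 had been removed with its antibody, or that had been mock-treated with rabbit IgG. Peaks of the IgG-depleted library were called against the PU.1-depleted one. The protocols give formaldehyde fixation (1% for 10 minutes) for the in vivo libraries and none for the in vitro pair. In vivo and in vitro lists therefore differ in this step too, and its part in their differences was not tested.

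PU.1 is an ETS-family transcription factor of myeloid cells that binds DNA with a GGAA core and occupies enhancers and promoters throughout macrophage differentiation. Chemokines are small secreted proteins that attract leukocytes through G protein-coupled receptors, and macrophages are a main source of them in inflamed tissue. Ccl2 and Ccl7 attract monocytes; Ccl3, Ccl4 and Ccl5 attract monocytes and T cells; Cxcl1 and Cxcl2 attract neutrophils; and Cxcl10, an interferon-induced gene, attracts activated T cells. Their genes lie in tandem clusters and are induced by signals such as lipopolysaccharide, through NF-kB and interferon-activated factors. In the order of the RefSeq gene table, Ccl9 and Ccl6, 2 further chemokine genes, lie between Ccl5 and Ccl3, so the Ccl5/Ccl3/Ccl4 window spans them as well. That table is on GRCm38, another build than the peaks, so no peak below could be placed relative to a gene's start, exons or introns. Whether other neighbours, such as Ccl11 next to Ccl7 or Art3 and Nup54 beside Cxcl10, reach into a window could not be settled either. Peaks are therefore given by mm9 position and by the distance of their start from the start of their window.

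The proximal promoters are shown because they are the DNA on which signal-induced factors act at these genes. The windows of Cxcl1, Cxcl2 and Ccl3 had peaks in every in vivo library while that of Cxcl10 did not, but no peak was placed on a promoter. RefSeq promoters were found for 4 of the 8 genes (Cxcl1, Cxcl2, Cxcl10 and Ccl3). They are the 250 bases before the annotated start in build GRCm38.p6: chr5:90890995-90891244 on the plus strand, chr5:90903649-90903898 on the plus strand, chr5:92348890-92349139 on the minus strand and chr11:83649379-83649628 on the minus strand. Each reads 5′ to 3′ on the gene's own strand. Capitals mark matches, on either strand, to the ETS core GGAA, to GGGNNTTTC (an NF-kB motif) and to TGANTCA (the AP-1 motif).
Cxcl1: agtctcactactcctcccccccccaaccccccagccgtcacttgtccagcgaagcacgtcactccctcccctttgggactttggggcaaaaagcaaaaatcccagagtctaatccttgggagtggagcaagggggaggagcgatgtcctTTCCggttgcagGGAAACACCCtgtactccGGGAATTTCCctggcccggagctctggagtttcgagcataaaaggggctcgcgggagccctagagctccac
Cxcl2: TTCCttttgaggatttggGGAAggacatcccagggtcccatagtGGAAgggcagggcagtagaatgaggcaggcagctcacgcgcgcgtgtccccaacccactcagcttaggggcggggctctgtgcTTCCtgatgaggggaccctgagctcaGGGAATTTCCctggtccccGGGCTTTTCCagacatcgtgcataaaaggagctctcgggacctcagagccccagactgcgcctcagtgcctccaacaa
Cxcl10: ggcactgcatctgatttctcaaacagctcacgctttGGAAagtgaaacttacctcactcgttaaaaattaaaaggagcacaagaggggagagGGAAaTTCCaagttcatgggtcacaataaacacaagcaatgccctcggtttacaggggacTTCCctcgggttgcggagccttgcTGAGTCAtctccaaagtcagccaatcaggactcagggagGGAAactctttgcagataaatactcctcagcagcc
Ccl3: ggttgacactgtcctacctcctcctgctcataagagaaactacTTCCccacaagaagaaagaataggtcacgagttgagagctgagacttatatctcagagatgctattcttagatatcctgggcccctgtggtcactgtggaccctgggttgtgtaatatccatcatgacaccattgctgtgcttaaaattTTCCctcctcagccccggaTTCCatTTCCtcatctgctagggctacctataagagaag

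All 4 promoters held the ETS core GGAA, as did 93.4% of all 32851 promoters in the RefSeq table, so the core alone separates nothing. The longer PU.1 motif GAGGAAGT was in none of the 4 and in 2.44% of all promoters. Its shorter form GGAAGT, which contains the core, was in those of Cxcl10 and Ccl3 and in 19.7% of all. The NF-kB motif GGGNNTTTC occurred 2 times each in the Cxcl1 and Cxcl2 promoters, against 3.72% of all promoters with at least 1 match, and was not found in those of Cxcl10 and Ccl3. Every one of these 4 NF-kB matches shares bases with a GGAA match, so a capital stretch there serves both motifs. The Cxcl10 promoter held the AP-1 motif, found in 6.75% of all promoters. A match is a string of letters and not a measured site, and no match says nothing about the factor. Only the string GGGNNTTTC was searched for NF-kB. Sites with other letters would be missed, so the Cxcl10 and Ccl3 promoters are not shown to lack an NF-kB site.

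Peaks of every in vivo list were found in 3 of the windows, while the Cxcl10 window had peaks in the 2 replicate 2 lists only. The controls had 27 and 29 peaks in the 4 windows, the shPU.1 libraries 16 and 20, and the in vitro list 11. The Ccl5/Ccl3/Ccl4 window held 18 peaks in each control library, and the Ccl2/Ccl7 window 4 in each. Per 100 kb the windows had 8.31 and 8.92 peaks in the control lists, where the whole lists averaged 1.14 and 1.39. The ratio of these densities was 7.31 and 6.41 in the controls, 8.60 and 5.86 in the shPU.1 libraries and 1.55 in vitro. Over the 4 windows together, high density was thus seen in each in vivo list, and much less of it in the in vitro list. When the genome was laid out in consecutive tiles as long as the window, 0.246% and 0.382% of tiles held at least as many peaks as the Ccl5/Ccl3/Ccl4 window in control replicates 1 and 2, and 0.382% and 0.225% in shPU.1 replicates 1 and 2. The Ccl2/Ccl7 window was less extreme, with 3.73% and 5.07% of tiles in the controls and 0.564% and 13.4% under shPU.1. For Cxcl1/Cxcl2 the shares were 1.95% and 5.07% in the controls and 1.88% and 1.92% under shPU.1. In the in vitro list the Ccl2/Ccl7 window held 4 peaks, as in each control, and its share was 3.41%. The in vitro shares were 24.5% for Ccl5/Ccl3/Ccl4 and 63.8% for Cxcl1/Cxcl2.

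**Figure D1:**
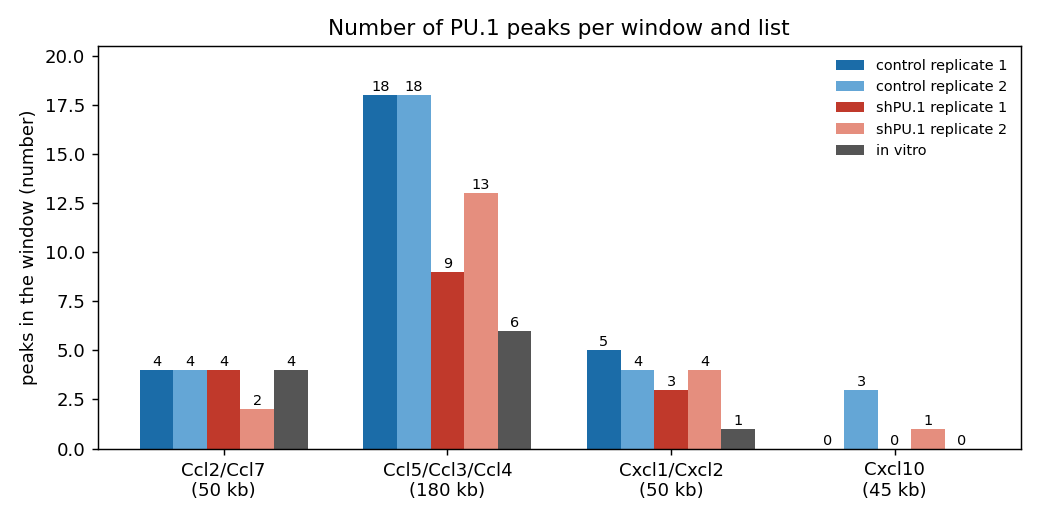
Bars give the number of PU.1 peaks (vertical axis) in each chemokine window (horizontal axis, with its length) for the 2 control, the 2 shPU.1 and the in vitro list. Both control bars of the Ccl5/Ccl3/Ccl4 window stand at 18 against 9 and 13 under the hairpin, and the Cxcl10 window holds at most 3 peaks.

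Fewer peaks were listed in the windows under the hairpin, in step with the whole lists. The number per library was 28.0 ± 1.41 (SD, n = 2) in controls and 18.0 ± 2.83 (SD, n = 2) under shPU.1, a log2 ratio of -0.64, and over the whole genome the log2 ratio was also -0.64. The groups did not overlap, but 2 against 2 libraries allow no exact two-sided permutation p below 0.33, which is the p obtained. Within replicate number 1 the shPU.1 library had 0.593 times as many window peaks as the control, and within number 2 it had 0.690 times. As a share of all peaks in the list, the windows held 0.0899% and 0.0789% in controls and 0.106% and 0.0721% under shPU.1. These shares overlapped between groups (exact two-sided permutation p = 1.00). With every in vivo list limited to its 15122 highest-scoring peaks, the length of the shortest list, the windows held 14 and 15 peaks in controls and 16 and 15 under shPU.1, a log2 ratio of 0.10. The direction therefore depends on list length. Read depth is unknown for every library, the labels do not say whether replicates are separate cultures, and PU.1 protein or transcript is not measured by these lists. By window, only Ccl5/Ccl3/Ccl4 had control counts (18 and 18) that did not overlap those under the hairpin (9 and 13). The whole lists did not overlap either, with 30026 and 36759 peaks in controls against 15122 and 27733 under shPU.1. The other windows held at most 5 peaks in any in vivo list. The share of same-length tiles without overlap was not computed, so this does not set the window apart.

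Most sites that both controls shared in the windows were still listed in both shPU.1 libraries. A control region is a merged region with a peak of both control libraries. It is kept if both shPU.1 libraries have a peak there, partial if 1 has, and lost if neither has. Of the 33 regions, 21 were control regions (63.6%, against 40.8% of all in vivo regions). Of these 21, 13 (61.9%, exact 95% interval 38.4 to 81.9) were kept, 4 partial and 4 lost. Over all 21680 control regions of the genome 40.0% were kept, 31.0% partial and 29.1% lost. Genome-wide the share kept rose with control score, and for the windows' own regions the share in their decile ran from 8.16% to 86.1%. Control regions of the same deciles of control score as those in the windows were kept in 36.1% and lost in 32.6% on average, against 61.9% and 19.0% (5.45 to 41.9) in the windows. The intervals cover the counting of regions only, which are not replicates. With peaks below a score of 100 left out, 4 of 11 control regions were kept (36.4%), near the 32.3% over the genome, and with peaks trimmed to their central 200 bp, 7 of 13 (53.8%) against 34.8%. A peak of shPU.1 replicate 1 was found in 14 of the 21 regions (66.7%, against 43.4% of all control regions) and one of replicate 2 in 16 (76.2%, against 67.5%). No region of the windows was gained, with peaks in both shPU.1 libraries and in neither control; 0.51% of all in vivo regions were of that kind. The other 12 regions had a peak in control replicate 2 alone (5), in control replicate 1 alone (3), in both replicate 2 lists (2) or in 1 shPU.1 library alone (2). In all, 10 of the 33 regions (30.3%) came from a single list, against 47.6% genome-wide.

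**Figure D2:**
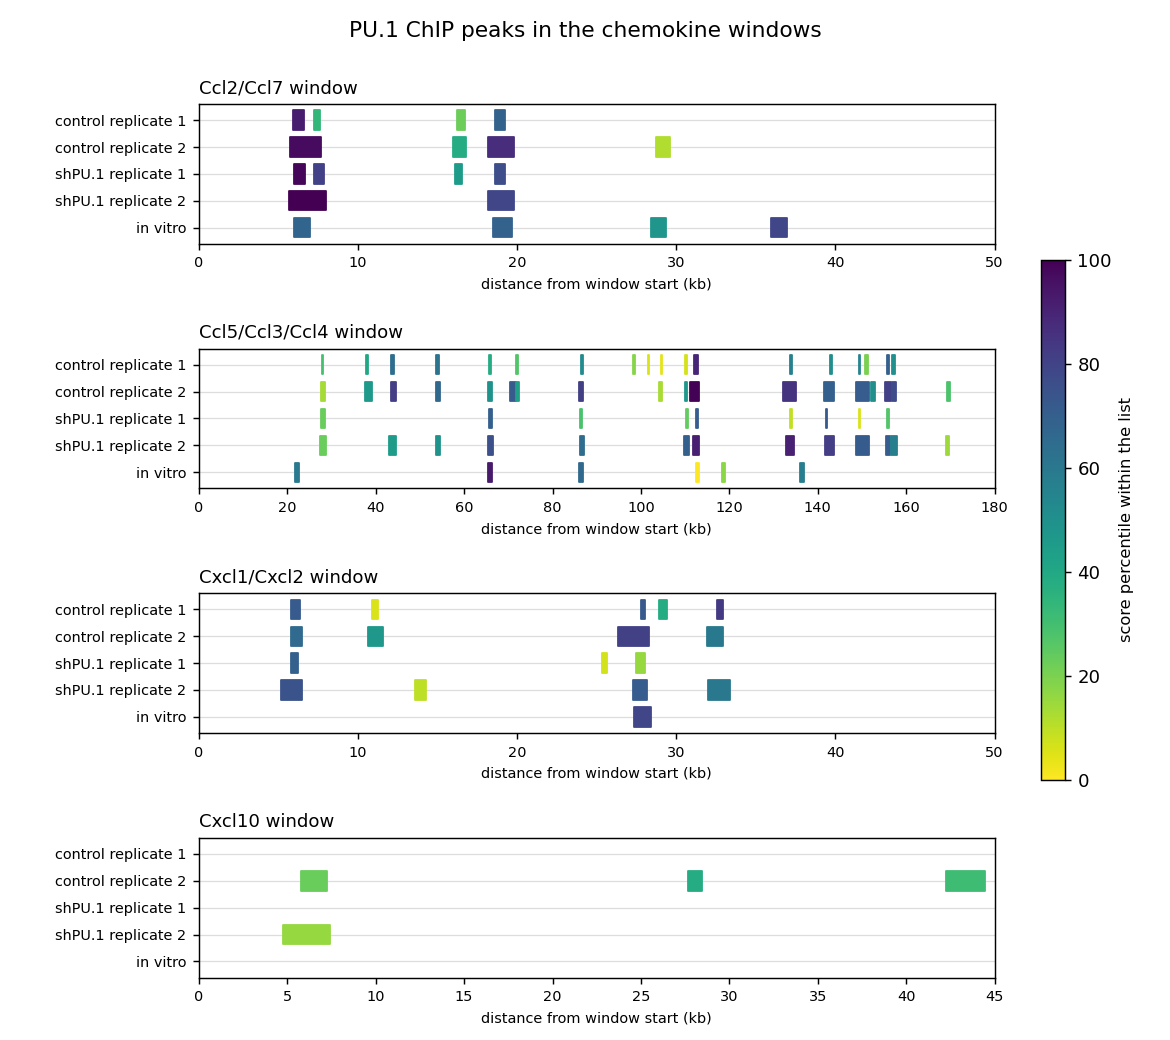
Each panel is 1 chemokine window, with distance from its start in kb on the horizontal axis and the 5 lists as rows; each block is a peak at its true position and width (widened to be visible where narrow), coloured by the percentile of its score within its list. Blocks of all 4 in vivo lists overlap at 12 of the 13 kept regions, the lists of replicate 2 have wider blocks, and the Cxcl10 window has blocks only in the 2 replicate 2 lists.

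The Ccl2/Ccl7 window held the highest-scoring site of all 4 windows in 3 of the 4 in vivo lists. It lay 5.7 kb into the window, at chr11:81835679-81838016. The score, a value from the authors' peak caller that by convention is 10 times -log10 of the peak's p, was 329.5 and 876.1 in control replicates 1 and 2 and 432.8 and 2212 in shPU.1 replicates 1 and 2. These scores grow with depth and are comparable only within a list, where they stood at percentiles 92.0, 97.1, 98.5 and 99.6 in the same order (percent of the list's peaks with that score or less). The site was among the highest 10% of peaks in every in vivo list, which held for 8.46% of all kept regions. Both replicate 1 libraries had 2 peaks in this region, and both replicate 2 libraries had 1 wide peak over it.

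A second site in the Ccl2/Ccl7 window, 18.1 kb from its start (chr11:81848138-81849822), was kept too. Its scores were 138.9 and 410.4 in the controls and 120.5 and 252.5 under shPU.1, at percentiles 69.0, 87.4, 76.2 and 79.2. A weaker site between them, 16.0 kb from the start (chr11:81845986-81846771), scored 64.2 and 94.5 in the controls and 72.5 in shPU.1 replicate 1, and had no peak in shPU.1 replicate 2. This was the 1 partial region of the 4 that was listed in shPU.1 replicate 1 and not in replicate 2. The other 3 partial regions were listed in replicate 2 alone. A further region, 28.7 kb in (chr11:81858727-81859584), appeared only in control replicate 2, with a score of 60.0.

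The Ccl5/Ccl3/Ccl4 window carried 14 of the 21 control regions, with 9 kept, 2 partial and 3 lost. Its strongest site in the controls lay 111.0 kb from the start, at chr11:83430997-83433100. It scored 283.7 and 1507 in the controls and 107.4 and 522.1 under shPU.1, at percentiles 89.4, 99.3, 71.1 and 91.0. The next site, 109.6 kb in (chr11:83429646-83430945), is separated from it by only a short gap and was weaker in every in vivo list. It scored 54.0 and 112.0 in controls, then 60.8 and 168.3 under shPU.1, at percentiles 6.29, 46.9, 24.2 and 69.5.

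A site 65.3 kb into this window (chr11:83385322-83386513) was modest in control cells and had the highest in vitro score of the 4 windows. Its scores were 79.4 and 117.0 in the controls and 104.2 and 213.8 under shPU.1. Its percentiles were 38.6 and 48.8 in the controls and 69.7 and 75.6 under shPU.1. A site 86.0 kb in (chr11:83405957-83407227) scored 97.7 and 306.4 in the controls and 62.7 and 142.2 under shPU.1. It stood at percentiles 52.1, 81.3, 28.6 and 64.6 in the same order. The kept site with the lowest mean control percentile (21.6) lay 27.5 kb in (chr11:83347493-83348659), with scores of 70.5 and 61.6 in controls, then 60.3 and 61.3 under shPU.1.

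Toward the end of the window, 4 broad kept regions followed each other . Those at 132.2 kb (chr11:83452151-83455086) and 148.7 kb (chr11:83468722-83471550) varied between libraries and were barely listed in 1. The first scored 105.8, 372.5, 54.2 and 515.7 in control replicates 1 and 2 and shPU.1 replicates 1 and 2, and the second 101.7, 210.8, 52.3 and 180.2. Their percentiles in the same order were 56.4, 85.4, 9.30 and 90.9, and 54.7, 71.0, 5.51 and 71.4. In both, shPU.1 replicate 1 was close to the lowest score of any list, 50.0. The region at 155.3 kb (chr11:83475283-83477989) scored 142.5 and 305.8 in the controls and 62.1 and 176.9 under shPU.1. Those are the scores of its first peak in each list. A second peak there scored 94.95 and 261.3 in the controls and 114.55 in shPU.1 replicate 2. In shPU.1 replicate 1 it had no counterpart. It counts as kept only because a shPU.1 replicate 2 peak joined it to the first. The region at 141.3 kb (chr11:83461347-83463781) scored 96.6 and 202.5 in controls, then 110.9 and 290.3 under shPU.1. In it the peaks of the 2 replicate 1 libraries did not touch each other and were joined only through the wide replicate 2 peaks. No base of it lay in a peak of all 4 lists, while 98.7% of all kept regions had such a base, and so did the other 12 kept regions here.

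The 3 lost sites of the Ccl5/Ccl3/Ccl4 window were weak in the controls. The one 37.5 kb in (chr11:83357510-83359086) scored 81.8 and 110.0, that at 71.8 kb (chr11:83391761-83392358) 68.5 and 103.9, and that at 104.0 kb (chr11:83424022-83424818) 52.5 and 61.3. All 3 ranked below the median control region of the genome. The mean control percentile of the 4 lost regions in the windows ran from 8.68 to 43.2, against a median of 61.5 over all control regions. The 2 partial sites, 43.0 kb (chr11:83362996-83364689) and 53.6 kb in (chr11:83373624-83374649), were stronger, with scores of 125.5 and 313.8 and of 118.2 and 185.4 in the controls. In shPU.1 replicate 2 they scored 86.1 and 94.4, and in replicate 1 they had no peak. That library had the shortest list (15122 peaks, against 27733 in replicate 2), and the part of list length in these absences was not tested.

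**Figure D3:**
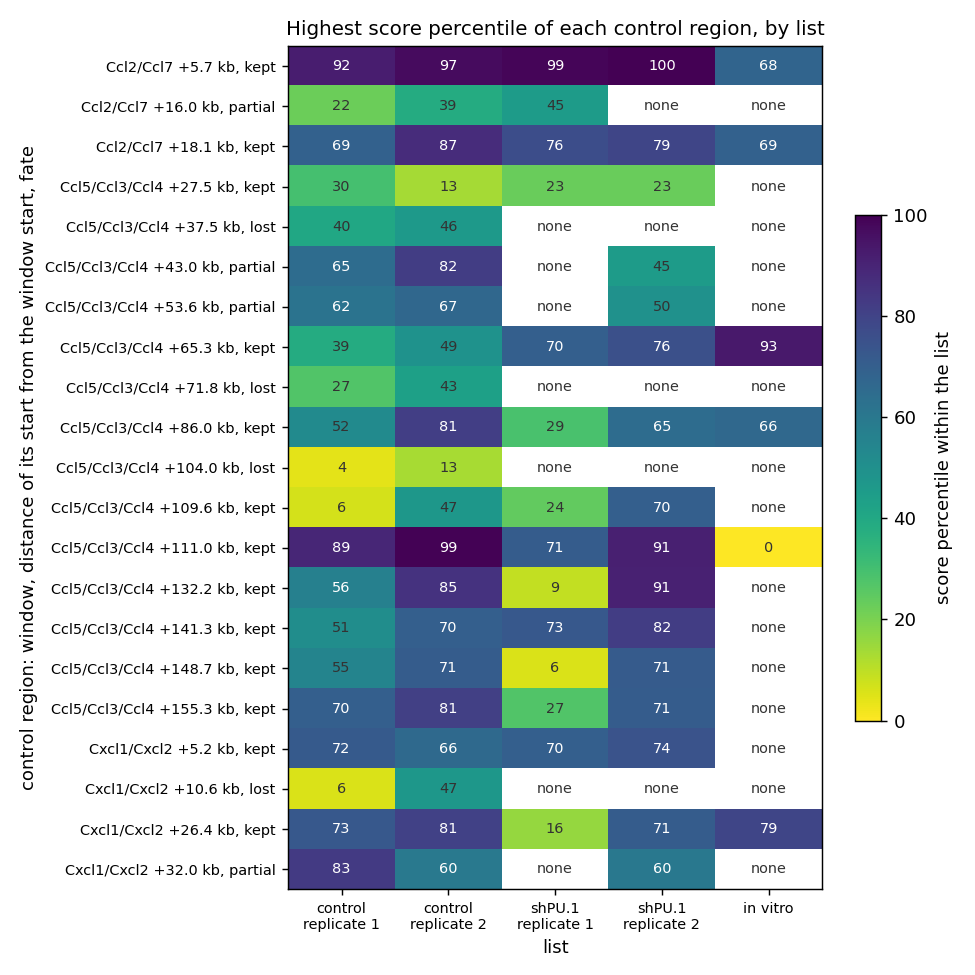
Rows are the 21 control regions with their distance from the window start and their fate, columns are the 5 lists, and colour and number give the percentile of the region's highest score within that list ("none" where the list has no peak there). The region at 5.7 kb of the Ccl2/Ccl7 window is above percentile 90 in all 4 in vivo lists, and the 4 lost regions stay at percentile 47.2 or less in both controls.

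Cxcl1 and Cxcl2 had 4 control regions in a window of 50 kb, of which 2 were kept, 1 was partial and 1 lost. The site at 26.4 kb (chr5:91326352-91328289) scored 153.1 and 297.1 in the controls and 56.4 and 177.2 under shPU.1. Its percentiles in the controls were 72.5 and 80.6. In the shPU.1 libraries they were 15.8 and 71.0. The site at 5.2 kb (chr5:91305185-91306508) was kept too, scoring 149.4 and 179.9 in controls, then 104.0 and 201.6 under shPU.1. The partial site at 32.0 kb (chr5:91331961-91333395) had the highest score of this window in control replicate 1, 213.7, with 152.6 in control replicate 2 and 123.2 in shPU.1 replicate 2, and was absent from shPU.1 replicate 1. The lost site at 10.6 kb (chr5:91310604-91311590) scored 53.6 and 112.6. A pair of peaks, each from 1 library, was found under the hairpin only, at chr5:91313606-91314291 (score 53.9, shPU.1 replicate 2) and chr5:91325344-91325667 (53.0, shPU.1 replicate 1), both close to the lowest score that any list contains.

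No PU.1 peak was listed in the Cxcl10 window in control replicate 1, in shPU.1 replicate 1 or in vitro. Control replicate 2 had 3 peaks, with scores of 71.2 (chr5:92760780-92762218), 94.2 (chr5:92782648-92783453) and 81.8 (chr5:92797260-92799436), at percentiles of 38.4 or less. In shPU.1 replicate 2 there was 1 peak (57.0), which overlapped the first of these. No control region could therefore be defined. A window of this length was empty in 73.5% of tiles of the genome in control replicate 1 and in 81.4% in shPU.1 replicate 1, so an empty window is common. In control replicate 2 the 3 peaks made 6.67 per 100 kb, above that list's average of 1.39, and 8.47% of tiles held as many or more. In shPU.1 replicate 2 the share of tiles with at least 1 peak was 30.4%. The nearest peaks outside it were 4.4 kb beyond its end and 45.9 kb before its start in control replicate 1. Both lists with peaks in this window are those of replicate number 2, which have wider peaks (median 892 and 1076 bp, against 435 and 448 bp in number 1). The part of that difference in the result was not tested.

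Scores of the kept sites could be ranked over a set of equal size in every list, the 8666 kept regions of the genome. In this ranking 4 of the 13 kept chemokine regions (30.8%) stood higher in both shPU.1 libraries than in both controls, and 3 (23.1%) stood lower. Over all kept regions the shares were 26.4% and 22.0%, so the chemokine sites were near the background in both directions. The higher ones were the Ccl2/Ccl7 site at 5.7 kb and the Ccl5/Ccl3/Ccl4 sites at 65.3, 109.6 and 141.3 kb. The Ccl2/Ccl7 site ranked at 78.5 and 88.7 percent of the kept set in the controls and at 97.7 and 98.8 under shPU.1. The site at 65.3 kb moved more, from 13.4 and 8.67 to 52.4 and 36.5. The lower ones were the sites at 111.0 and 155.3 kb of the Ccl5/Ccl3/Ccl4 window and the Cxcl1/Cxcl2 site at 26.4 kb, the last from 42.8 and 42.4 to 8.53 and 29.5. The site at 111.0 kb went from 72.8 and 97.2 to 54.2 and 72.4. In the other 6 kept regions the ranks of the groups overlapped, among them the Cxcl1/Cxcl2 site at 5.2 kb, with 41.4 and 20.2 in controls against 52.2 and 34.3. Ranks are relative, so a higher rank does not show more binding. For the region at 141.3 kb, the ranks compare peaks that do not all overlap.

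**Figure D4:**
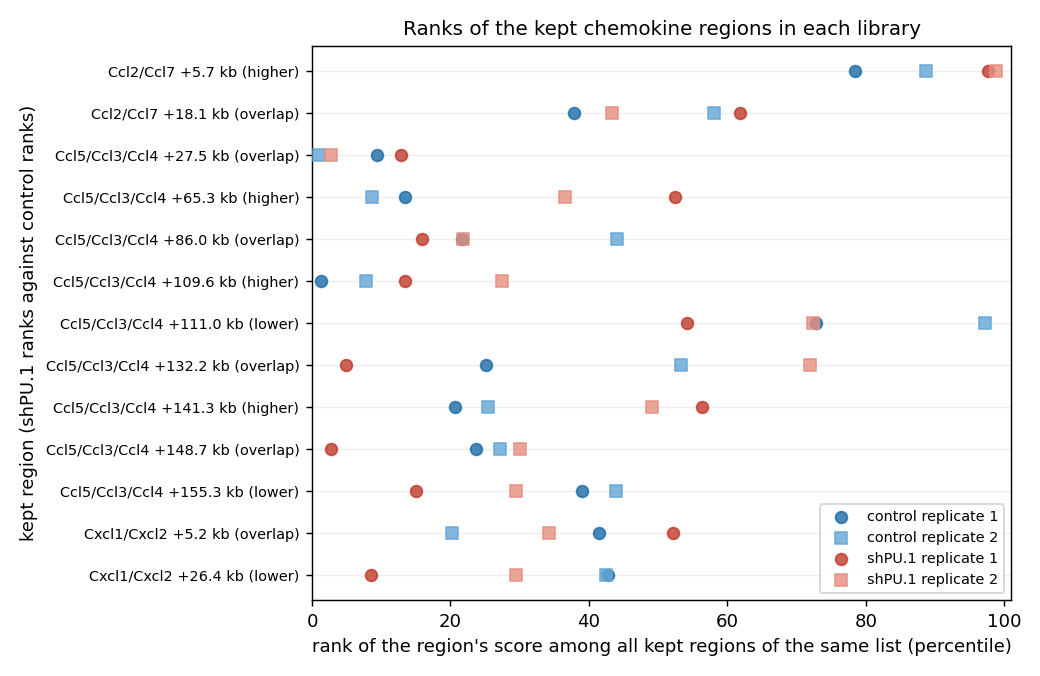
Each row is 1 of the 13 kept regions, and points give the rank of its score among the 8666 kept regions in each library (percent, 100 the highest), with circles for replicate 1 and squares for replicate 2. In 4 rows both red (shPU.1) points lie to the right of both blue (control) points, in 3 rows to the left, and in 6 rows they overlap.

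On reconstituted chromatin, 6 of the 11 PU.1 peaks in the windows fell on sites kept in cells. These 6 (54.5%) were the only ones on a control region, and 1 more lay on a region of control replicate 2 alone, together 7 (63.6%). For the whole in vitro list these shares were 10.6% and 20.7%; in vivo peaks were several times denser in these windows, as given above. Of the 21 control regions 6 (28.6%) carried an in vitro peak, against 27.6% genome-wide. Those 6 all belonged to the kept class (6 of 13, 46.2%, exact 95% interval 19.2 to 74.9), and none of the 8 partial or lost ones had one (upper limit of the exact 95% interval 36.9%). The genome-wide shares were 39.5% for the kept class and 19.7% for the partial and lost classes. With 21 regions and 1 in vitro list, these counts are a description.

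The in vitro scores did not follow the order of the sites in cells. The highest, 459.3 (percentile 93.2 of the in vitro list), lay on the modest Ccl5/Ccl3/Ccl4 site at 65.3 kb. The strongest control site of that window, at 111.0 kb, had an in vitro score of 50.1, close to the lowest of the list. The Ccl2/Ccl7 sites at 5.7 and 18.1 kb had in vitro scores of 153.7 and 159.6, the Ccl5/Ccl3/Ccl4 site at 86.0 kb 148.4 and the Cxcl1/Cxcl2 site at 26.4 kb 220.3. The in vitro peak on the control replicate 2 region, chr11:81858436-81859344 in the Ccl2/Ccl7 window, scored 100.1. The remaining 4 had no peak in cells. They were chr11:81865957-81866981 in the Ccl2/Ccl7 window, with a score of 219.8, and chr11:83341641-83342650 (125.5), chr11:83438373-83438961 (61.6) and chr11:83456077-83456861 (121.5) in the Ccl5/Ccl3/Ccl4 window. The last lay 991 bp from the nearest in vivo region and the first 6373 bp. By window, 2 of 3 control regions of Ccl2/Ccl7 had an in vitro peak, 3 of 14 of Ccl5/Ccl3/Ccl4, 1 of 4 of Cxcl1/Cxcl2, and Cxcl10 had none to compare.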

How the data were processed

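The submitters' processing notes name Bowtie 0.12.7, MACS 1.4 and build mm9; their settings are not stated in those notes. The authors deposited 5 BED lists in which each peak has a score, which MACS of that version conventionally computes as -log10 of the p-value times 10. Names of the deposited lists say that each in vivo library was compared with an input. The lists hold no read counts, so depth is unknown. The 9 MNase samples were not analysed here.

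Peaks overlapping the windows were counted, and in vivo peaks sharing at least 1 bp were merged genome-wide (Python 3.11.15, pandas 2.3.3, scipy 1.17.1). Group means were compared by exact permutation tests, and shares carry Clopper-Pearson intervals, which cover counting error only. All regions of the windows were kept for naming: those with peaks of both controls are given with all scores, others by position if they hold an in vitro peak, else by count; those of the Cxcl10 window and the shPU.1-only peaks are named in addition, a choice made after their values were seen. The planned placement of other chemokine genes on peaks was not made, for lack of an mm9 annotation here. The members, windows and lists were chosen with earlier results of these data known. The fate-calling code was run on lists simulated from the 2 control lists, which merged without the shPU.1 lists give 21975 regions: all 200 lost and 200 partial regions put in were found. The simulated lists were copies of the control lists with those peaks removed. This checks the code only, and not how well fates are called between lists that differ in length and peak edges. Alternatives were a score minimum of 100, central 200 bp, equal list lengths, windows widened by 25 kb, a larger overlap, each library left out and a replicate block. Promoters came from RefSeq (GRCm38.p6).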

Additional observations from a re-analysis of the deposited data

How the results depend on the processing

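With 2 libraries a group, 5 lists and 21 control regions, single regions decide much. The log2 ratio of window peaks (-0.64) kept its sign in 9 of 10 alternatives and reversed to 0.0962 with equal list lengths. It ran from -0.807 to -0.485 when 1 library was left out. The log2 ratio of the share of a list in the windows (0.0758) ran from -0.227 to 0.326 with 1 library left out, reversing to -0.0155 without control replicate 2 and to -0.227 without shPU.1 replicate 1. The kept share (61.9%) stayed within its interval in 10 of 11 alternatives and was 36.4% at a score of at least 100, where fewer peaks remain. Leaving out 1 library gave 46.4% to 76.2%, against 26.9% to 67.5% over all control regions; a region then needs peaks in fewer libraries. The lost share (19.0%) ran from 23.8% to 36.4% with 1 library left out and was 7.69% (1 of 13) with equal list lengths, against 32.5% to 56.9% and 19.2% over all control regions. The in vitro share (28.6%) was 23.1% to 42.9% in 10 alternatives, the last (3 of 7) without the Ccl5/Ccl3/Ccl4 window, a setting chosen after seeing the data. Over all control regions it was 21.5% to 33.0%. In the settings that gave 23.1% and 42.9% it was 24.8% and 27.6%. With the replicate number as block, the values were log2 ratios of -0.645 and 0.0526, a kept share of 58.1% and a lost share of 41.9%, since each number then has 1 shPU.1 library and no partial class. Nothing in the labels ties equal numbers to 1 mouse or day. Over the 8666 kept regions, rank differences between the numbers had a correlation of 0.159 between the groups.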

Other observations

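Other genes of the chemokine system could be followed only in promoter sequence, since no annotation of the peaks' build was used here. Of 21 further chemokine and receptor genes listed for this purpose, 15 had a RefSeq promoter. The PU.1 motif GAGGAAGT was in 2 of these 15 (2.44% of all promoters), its short form GGAAGT in 10 (19.7%), the NF-kB motif GGGNNTTTC in 5 (3.72%) and the AP-1 motif TGANTCA in 2 (6.75%). These are counts of letters in 250 bases and carry no binding data.

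With the windows widened by 25 kb on each side, the in vivo lists held 34, 37, 21 and 26 peaks. The windows alone held 27, 29, 16 and 20. Both are in the order control replicates 1 and 2, then shPU.1 replicates 1 and 2. The peak density of the added stretches was not computed. In the widened windows the share of control regions kept was 63.0% (17 of 27), against 40.0% over all control regions. The first peak before the Cxcl10 window lay 45.9 and 15.5 kb from its start in control replicates 1 and 2, with scores of 152.6 and 166.9. In shPU.1 replicates 1 and 2 it lay 45.8 and 44.9 kb away, with scores of 53.5 and 1109. The control replicate 2 peak, at 15.5 kb, is another site than these, and scores compare only within a list. These values therefore cannot show whether the groups differ.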
